A study of Mus musculus with 17 samples.

Results

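Hepatocytes are defined by a small set of transcription factors, and transcripts of 8 of them were examined together with albumin. The factors were the nuclear receptors HNF4α (Hnf4a) and LRH-1 (Nr5a2), the leucine zipper factor C/EBPα (Cebpa), the forkhead factors Foxa1, Foxa2, and Foxa3, and the homeodomain factors HNF6 (Onecut1) and Prox1. Albumin (Alb) is the main protein that hepatocytes secrete and served as the readout of their output. The members were all 14 probes that carried 1 of these 9 symbols in the deposited log2 ratio table, out of 41174 non-control probes of 21452 genes. Hnf4a and Prox1 had 3 probes each, Cebpa had 2, and each of the other genes had 1.

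Livers of 17 mice were measured, 1 array per mouse. The chow group (n = 4) was fed chow and given maltose by gavage, the 1B group (n = 4) was fed chow and given 1 binge of ethanol at 5 g/kg, the HFD group (n = 4) was fed a high-fat diet and given maltose, and the HFD+1B group (n = 5) was fed the high-fat diet and given the same ethanol binge. All mice were male, fed for 3 months, and killed 9 hours after the gavage. The labels name the strain C57BL/6N and the methods C57BL/6J, and neither names a genetic change in these mice. On each 2-color array, cDNA of 1 liver was labeled with Cy5 and a common reference RNA with Cy3, so every value is a log2 ratio of liver to reference, and the reference drops out of the difference between 2 groups. Differences were tested with limma over 34664 probes, and a probe was called at a Benjamini-Hochberg adjusted p of 0.05 or less. The label liver was checked on 14 hepatocyte markers, all of which were above background and tested. The 4 comparisons against chow or HFD share control mice, so that they are not independent of each other.

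HNF4α and the FOXA proteins keep the chromatin of hepatocyte genes open and bind next to each other and to C/EBPα and HNF6 at the promoters and enhancers of genes for plasma proteins, bile acid synthesis, and gluconeogenesis. The factors also bind each other's genes, and this network is known for keeping adult hepatocytes differentiated. LRH-1 and its repressor SHP (Nr0b2) set the rate of bile acid synthesis, whereas HNF6 and Prox1 are best known from liver development and from the control of bile acid genes.

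Of the probes on which the results turn, 4 lie within coding sequence and are shown whole, in capitals, because all of their 60 bases take part in the hybridization. Positions of the other probes in their transcripts, Cebpa probe 2 among them, were not derived here. The Hnf4a probe 3 lies in the part that codes for the DNA-binding zinc fingers, the Cebpa probe 1 in the leucine zipper, the Onecut1 probe in the homeodomain, and the Alb probe near the end of the albumin chain.
Hnf4a probe 3: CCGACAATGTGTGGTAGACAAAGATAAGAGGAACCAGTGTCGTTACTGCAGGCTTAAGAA
Cebpa probe 1: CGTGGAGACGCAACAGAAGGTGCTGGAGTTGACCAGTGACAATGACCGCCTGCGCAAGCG
Onecut1 probe: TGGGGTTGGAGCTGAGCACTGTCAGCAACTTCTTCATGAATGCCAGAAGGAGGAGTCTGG
Alb probe: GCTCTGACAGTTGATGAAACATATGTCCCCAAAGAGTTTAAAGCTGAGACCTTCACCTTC
The GC content of the 14 probes ranged from 35.0% to 60.0%. Hnf4a probe 1 and Prox1 probe 1 (35.0% GC each) hold the hexamer AATAAA, the usual signal for cleavage and polyadenylation, and no other member probe does.

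Cebpa encodes a factor needed for gluconeogenesis and for the quiescence of hepatocytes. Its level at probe 2, the dimmer of its 2 probes, was lower in HFD+1B livers than in each other group. At Cebpa probe 2 the log2 ratios were 0.58, 0.5, 0.41, and 0.58 in chow mice 1 to 4, and 0.72, 0.12, 0.52, and 0.56 in 1B mice 1 to 4. They were 0.83, 0.55, 0.72, and 0.53 in HFD mice 1 to 4. In HFD+1B mice 1 to 4 they were -0.86, -0.66, -0.66, and -0.76, and the spot of mouse 5 was marked as an outlier by the scanner software and left out. All 4 measured HFD+1B mice were thus below zero and below every mouse of the other groups, with no overlap. The difference of HFD+1B from chow was -1.25 (SE 0.11, limma adjusted p = 2.57e-06), a 2.38-fold lower level. Against HFD it was -1.39 (SE 0.11, limma adjusted p = 2.85e-06), and against 1B it was -1.21 (SE 0.11, limma adjusted p = 6.51e-06).

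In the 1B and HFD groups, Cebpa probe 2 did not differ from chow past the threshold. The difference was -0.04 in 1B (95% confidence interval -0.28 to 0.2) and 0.14 in HFD (-0.1 to 0.38). The interaction, the ethanol difference on HFD minus the ethanol difference on chow, was -1.35 (SE 0.16, limma adjusted p = 0.00152). Within the 3 slides on which both groups had a measured spot, HFD+1B was below chow by log2 differences of -1.44 to -1.07. In bulk liver, fewer hepatocytes and less Cebpa RNA per hepatocyte cannot be told apart.

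Cebpa probe 1, over the leucine zipper, gave the same direction in HFD+1B with a wider spread. Its log2 ratios were 0.11, 0.25, 0.19, and 0.42 in chow, and -0.73, -0.89, -1, and -0.71 in HFD+1B mice 1 to 4, without overlap (mouse 5 was again an outlier spot). The 1B mice 1 to 3 stood at 0.63, -0.18, and 0.45. The HFD mice stood at 0.12, 0.28, -1.89, and -0.42, so that mouse 3 alone was below the HFD+1B mice. The difference of HFD+1B from chow was -1.07 (SE 0.34, limma adjusted p = 0.0413), and it was lost without any 1 of 10 mice, with adjusted p of 0.000534 to 0.103 over the 17 fits that each left out 1 mouse. Against HFD the difference was -0.35 (SE 0.34, limma adjusted p = 0.516), and without HFD mouse 3 it was -0.82 (SE 0.19, limma adjusted p = 0.00969). Against 1B it was -1.13 (SE 0.36, limma adjusted p = 0.0608), so that this brighter probe was called only against chow. The interaction at probe 1 was -0.41 (SE 0.49, limma adjusted p = 0.701).

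Onecut1 showed the largest fall of the 9 genes in HFD+1B against chow. HFD+1B mice 1 to 5 had log2 ratios of -0.9, -1.14, -1.15, -1.04, and -1.44, a narrow range. Chow mice 1 to 4 had 0.05, 1.01, -0.41, and 1.27, and 1B mice 1 to 4 had 1, -0.82, 1.14, and 0.58. HFD mice 1 to 4 had -0.45, -1, -0.65, and 0.22. All HFD+1B mice were below all chow and all 1B mice, whereas HFD mouse 2 lay within their range. The spread was 0.2 (SD, n = 5) in HFD+1B and 0.79 (SD, n = 4) in chow.

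The difference of Onecut1 between HFD+1B and chow was -1.62 (SE 0.37, limma adjusted p = 0.00578), a 3.06-fold lower level, and against 1B it was -1.61 (SE 0.37, limma adjusted p = 0.00944). Within the 4 slides with both groups, HFD+1B was lower than chow by -2.46 to -0.73. Against HFD the difference was -0.66 (95% confidence interval -1.44 to 0.12, limma adjusted p = 0.233), and HFD against chow gave -0.95 (-1.77 to -0.13, limma adjusted p = 0.132). In order of the group means, chow (0.48) and 1B (0.47) were followed by HFD (-0.47) and HFD+1B (-1.14). Neighbors in this order that were compared, chow with 1B and HFD with HFD+1B, did not differ past the threshold.

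Nr5a2, which encodes LRH-1, was lower in both groups fed the high-fat diet. Its log2 ratios were 0.03, 0.06, 0.14, and 0.01 in chow, and -0.55, -0.33, -0.95, and -0.38 in HFD. In HFD+1B mice 1 to 5 they were -0.3, -0.46, -0.45, -0.41, and -0.38. No mouse of either HFD group overlapped with chow, and the 1B mice (-0.5, -0.03, 0.22, and -0.14) spread over both ranges. The difference from chow was -0.61 in HFD (SE 0.14, limma adjusted p = 0.00968) and -0.46 in HFD+1B (SE 0.13, limma adjusted p = 0.023). The call in HFD+1B was lost without chow mouse 2 or chow mouse 3, with an adjusted p of up to 0.0672, and that in HFD with HFD mice 1 and 3 both left out (-0.41, limma adjusted p = 0.143). HFD+1B and HFD differed by 0.15 (95% confidence interval -0.12 to 0.43).

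**Figure D1:**
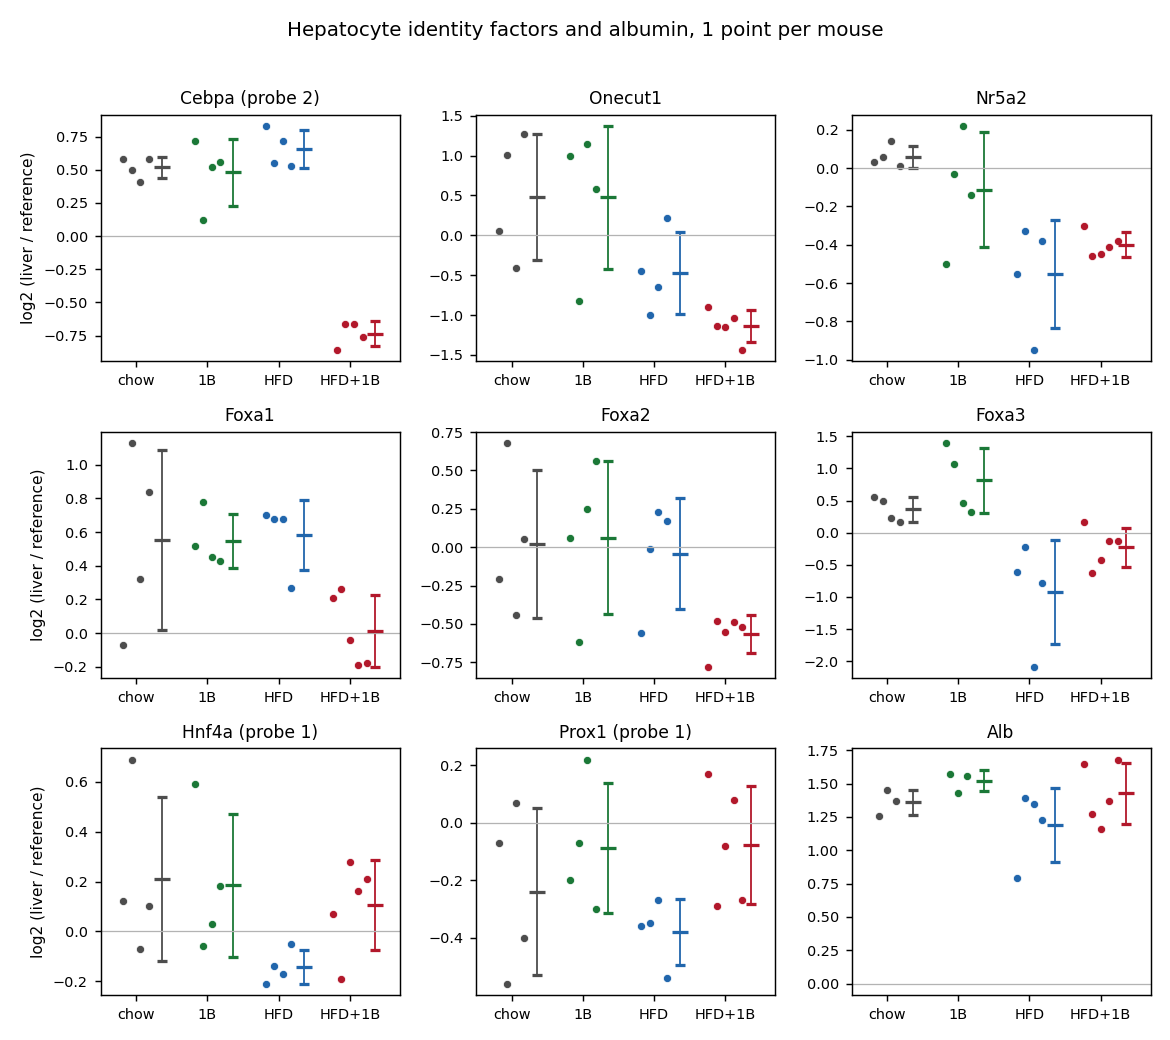
Log2 ratios of liver to reference for 1 probe of each of the 9 genes, 1 point per mouse in the chow, 1B, HFD, and HFD+1B groups, with mean and SD beside the points, each panel on its own axis. Hnf4a and Prox1 are shown at their brightest probe and Cebpa at its dimmer probe 2. Cebpa probe 2 in HFD+1B (-0.86 to -0.66) lies below every other mouse, and Onecut1 in HFD+1B (-1.44 to -0.9) lies below all chow and 1B mice.

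The forkhead genes, whose proteins open compacted chromatin ahead of other factors, differed in which comparisons they were called. Foxa1 had a mean of 0.56 in chow, with 1B (0.54) and HFD (0.58) beside it, whereas the mean of HFD+1B was 0.01. HFD+1B mice 1 to 5 had log2 ratios of 0.21, 0.26, -0.04, -0.19, and -0.18, and HFD mice 1 to 4 had 0.7, 0.68, 0.68, and 0.27. HFD mouse 4 was thus just above the highest HFD+1B mouse, and these groups did not overlap. HFD+1B against HFD gave -0.57 (SE 0.19, limma adjusted p = 0.0432), which was lost in 8 of the 17 fits that left out 1 mouse (without 1B mouse 1 or 3, HFD mouse 1, 2, or 3, or HFD+1B mouse 3, 4, or 5), with an adjusted p of up to 0.103. Against chow, whose mice ranged from -0.07 to 1.13, the difference was -0.55 (SE 0.19, limma adjusted p = 0.0592).

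Foxa2, a regulator of bile acid and lipid handling in the adult liver, was between -0.78 and -0.48 in the 5 HFD+1B mice, with values of -0.78, -0.48, -0.55, -0.49, and -0.52. Chow mice had -0.21, 0.68, -0.44, and 0.05, all above them. The difference of -0.58 (SE 0.23, limma adjusted p = 0.1) did not pass the threshold. HFD mouse 1 (-0.56) and 1B mouse 2 (-0.62) lay within the range of the HFD+1B mice. Foxa2 was the only member with several spots, 10 per array. Against 1B its difference was -0.63 (SE 0.23, limma adjusted p = 0.0958).

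Foxa3, the forkhead gene with a role in hepatic glucose supply, had its lowest group mean in HFD. HFD mice had log2 ratios of -0.61, -0.23, -2.09, and -0.78, all below the chow mice at 0.56, 0.5, 0.23, and 0.16. The 1B mice had 1.4, 1.07, 0.47, and 0.32, and HFD+1B mice 1 to 5 had 0.17, -0.62, -0.43, -0.13, and -0.13. HFD mice 1 and 2 therefore lay within the range of the HFD+1B mice. HFD against chow was -1.29 (SE 0.31, limma adjusted p = 0.0137), and without HFD mouse 3 it was -0.9 (SE 0.23, limma adjusted p = 0.0319). HFD+1B was lower than 1B (-1.04, SE 0.29, limma adjusted p = 0.0297). That call was lost without 1B mouse 1 or 2 or HFD+1B mouse 2, 3, or 4, with an adjusted p of up to 0.115.

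Hnf4a, which encodes the central nuclear receptor of the network, was lower than chow at 2 of its 3 probes in the HFD group. At probe 3 the HFD mice 1, 2, and 4 had log2 ratios of -0.9, -0.92, and -1.6 (mouse 3 was an outlier spot), below chow at 0.3, 0.23, -0.14, and 0.15. At probe 2 the HFD mice had -0.44, -0.45, -2.31, and -1.09, also below chow at 0.15, 0.36, -0.16, and 0.18. At probe 1, the probe with the AATAAA hexamer, the HFD mice had -0.21, -0.14, -0.17, and -0.05, and chow mice 0.12, 0.69, -0.07, and 0.1, which overlap.

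HFD against chow was -1.28 at Hnf4a probe 3 (SE 0.2, limma adjusted p = 0.00116), -1.21 at probe 2 (SE 0.3, limma adjusted p = 0.0181), and -0.35 at probe 1 (SE 0.16, limma adjusted p = 0.166). With median centring in place of loess, probe 1 was called as well (-0.56, SE 0.15, limma adjusted p = 0.0231). That setting moved the whole comparison, with 465 higher and 2663 lower of all 34664 probes, where loess gave 1370 and 2059. Under loess, the mean of all Hnf4a probes was called (-0.95, SE 0.16, limma adjusted p = 0.00177). Without HFD mouse 3, the value at probe 2 was -0.79 (SE 0.21, limma adjusted p = 0.0326). The gap between probes 3 and 1 in the same mouse ranged from -1.55 to -0.69 in HFD and from -0.46 to 0.19 in chow. Tested over mice, the groups differed by -0.94 in this gap (2-sided exact permutation p = 0.0286, the smallest that 3 against 4 mice allow, 0.143 after adjustment over 5 such pairs of probes). The gap between Hnf4a probes 2 and 1 differed by -0.86 (2-sided exact permutation p = 0.0857, adjusted 0.143). Between Cebpa probes 1 and 2 it differed by -0.86 as well (2-sided exact permutation p = 0.0571, adjusted 0.143). For Prox1 it differed by -0.2 between probes 2 and 1 and by -0.04 between probes 3 and 1 (2-sided exact permutation p = 0.457 and 0.8). These pairs were tested after their values had been seen.

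In HFD+1B livers, none of the Hnf4a probes differed from chow past the threshold, with differences of -0.1 (95% confidence interval -0.41 to 0.21), -0.08 (-0.69 to 0.52), and -0.27 (-0.64 to 0.11) at probes 1, 2, and 3. Against HFD, HFD+1B was higher by 1.12 at Hnf4a probe 2 (SE 0.29, limma adjusted p = 0.0118) and by 1.01 at probe 3 (SE 0.19, limma adjusted p = 0.00208), and the groups did not overlap at either probe. HFD+1B mice 1 to 5 had 0.03, -0.03, -0.52, 0.36, and -0.5 at probe 3. Probe 1 gave 0.25 (SE 0.15, limma adjusted p = 0.271), and 0.49 with median centring (SE 0.14, limma adjusted p = 0.0201). Median centring gave 5687 higher and 906 lower of all probes there, where loess gave 3406 and 2794. The mean of all Hnf4a probes gave 0.8 against HFD (SE 0.16, limma adjusted p = 0.00209) and an interaction of 0.87 (SE 0.23, limma adjusted p = 0.0401). The interaction passed at probe 3 (1.12, SE 0.27, limma adjusted p = 0.0291), and was lost in 5 of the 17 fits without 1 mouse (chow mouse 1 or 4, 1B mouse 1 or 2, or HFD mouse 4), with an adjusted p of up to 0.0811. It was not called at probe 1 (0.27, SE 0.21, limma adjusted p = 0.529) or probe 2 (1.19, SE 0.42, limma adjusted p = 0.117).

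The HFD group also stood apart in ribosomal RNA, which bears on RNA quality and labeling. The mean log2 ratio of 3 ribosomal RNA probes was -2.47, -2.08, -3.68, and -3.12 in HFD mice 1 to 4. It was 0.48 ± 0.16 (SD, n = 4) in chow, -0.37 ± 0.58 (SD, n = 4) in 1B, and 0.23 ± 0.71 (SD, n = 5) in HFD+1B. HFD mouse 3, with the lowest ribosomal RNA value, had the lowest values of all mice at 4 of the 14 probes (Hnf4a probe 2, Cebpa probe 1, Foxa3, and Nr5a2). It was the highest of the HFD mice at Foxa2 (0.23) and Prox1 probe 1 (-0.27), and had 0.72 at Cebpa probe 2. The part of RNA quality in the differences of HFD from chow and of HFD+1B from HFD was not tested. The median Cy5 signal per array was 44.5, 49, 76, and 42 intensity units in HFD mice 1 to 4 and 49 to 137 in the other groups. HFD mice 1, 2, and 4 were thus dimmer than every mouse of the other groups except 1B mouse 4 (48.8).

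**Figure D2:**
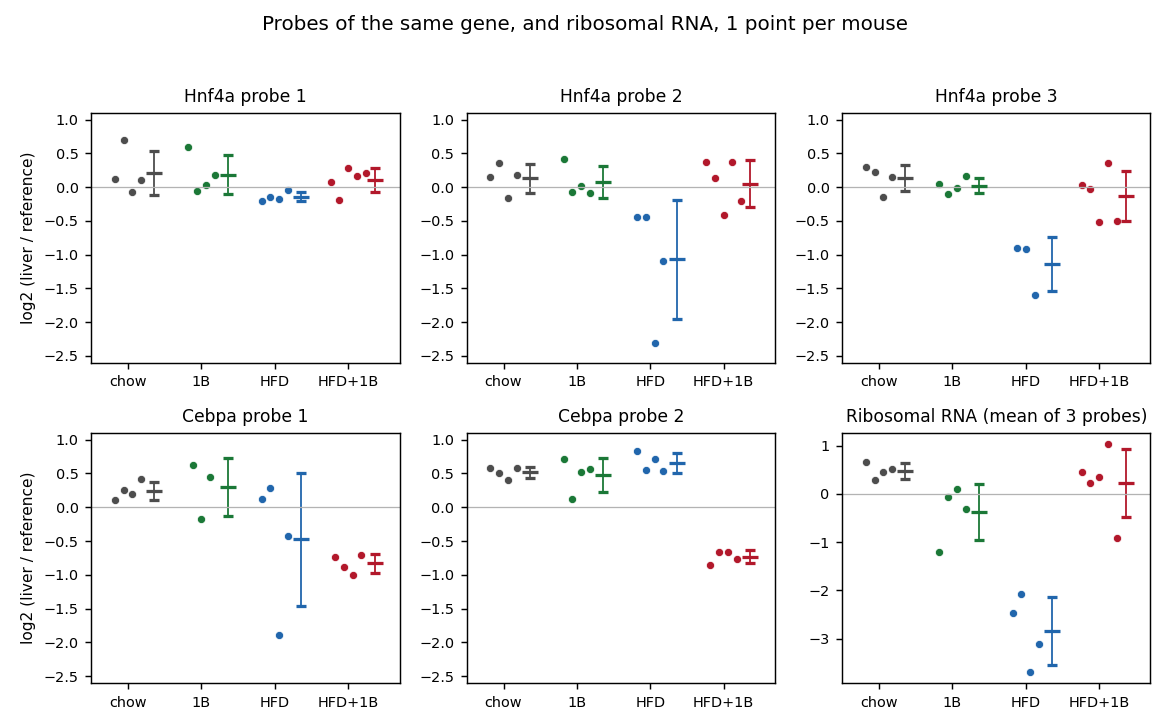
Log2 ratios of liver to reference at the 3 probes of Hnf4a, the 2 probes of Cebpa, and the mean of 3 ribosomal RNA probes, 1 point per mouse, with mean and SD beside the points, and the same axis for all Hnf4a and Cebpa panels. HFD mice lie below chow at Hnf4a probes 2 and 3 and at ribosomal RNA but overlap with chow at Hnf4a probe 1, and HFD+1B mice lie below chow at both Cebpa probes.

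Prox1, a homeodomain factor that acts as a corepressor of LRH-1 and HNF4α, gave no call at any of its 3 probes in any comparison. At probe 1 the mean of the chow mice was -0.24 (SD 0.29) and that of the 1B mice -0.09 (SD 0.23). HFD mice averaged -0.38 (SD 0.11), and HFD+1B mice averaged -0.08 (SD 0.2). HFD+1B minus chow was 0.16 (95% confidence interval -0.13 to 0.45), -0.12 (-0.53 to 0.3), and 0.15 (-0.27 to 0.58) at probes 1, 2, and 3. The largest difference was 0.45 at probe 3 in 1B against chow (SE 0.21, limma adjusted p = 0.355). All groups overlapped at each Prox1 probe.

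Alb, the readout of hepatocyte output, was not called in any comparison. Its log2 ratios were 1.26, 1.45, and 1.37 in chow mice 2 to 4 and 1.57, 1.43, and 1.56 in 1B mice 1 to 3, with the spot of 1 mouse left out in each group. HFD mice 1 to 4 had 0.79, 1.39, 1.35, and 1.23, whereas HFD+1B mice 1 to 5 had 1.65, 1.27, 1.16, 1.37, and 1.68. HFD mouse 1 was the lowest, and all HFD mice lay below all measured 1B mice, whereas each other pair of groups overlapped. HFD+1B minus chow was 0.07 (SE 0.14, 95% confidence interval -0.24 to 0.37), and HFD minus chow was -0.17 (-0.49 to 0.15). No spot of the arrays reached scanner saturation in Cy5. With the Cy5 channel used alone, the sign against HFD turned, from 0.24 (limma adjusted p = 0.237) to -0.52 (limma adjusted p = 0.00656).

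Counted over all members, 0 of 14 probes were called in 1B against chow in limma, and 1 had an unadjusted p under 0.05, where 1.87% of all probes tested were higher and 1.76% lower. In HFD against chow 4 probes of 3 genes were lower (Hnf4a probes 2 and 3, Foxa3, and Nr5a2) and 0 higher, against 5.94% of all probes lower and 3.95% higher. In HFD+1B against chow 4 probes of 3 genes were lower (both Cebpa probes, Onecut1, and Nr5a2) and 0 higher, against 6.89% lower and 7.87% higher. In HFD+1B against HFD 2 probes were higher (Hnf4a probes 2 and 3) and 2 lower (Cebpa probe 2 and Foxa1), against 9.83% higher and 8.06% lower. With median centring in place of loess this split was 4 higher and 1 lower, beside 5687 higher and 906 lower of all 34664 probes. In the Cy5 channel alone it was 1 higher and 2 lower, beside 1465 higher and 666 lower of all probes. In HFD+1B against 1B 3 probes were lower (Cebpa probe 2, Foxa3, and Onecut1) and 0 higher, against 4.68% lower and 5.29% higher. In the interaction 1 was higher (Hnf4a probe 3) and 1 lower (Cebpa probe 2), against 2.40% higher and 1.62% lower. Median centring gave 2 higher and 1 lower there, beside 1639 higher and 166 lower of all 34664 probes. The Cy5 channel alone gave 0 higher and 1 lower, beside 267 higher and 44 lower of all probes.

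The median difference of the 14 probes was -0.36 in HFD+1B against chow and -0.34 in HFD against chow, beside -0.001 and 0.002 for all probes tested. In 1B against chow it was 0.01, with members between -0.17 and 0.45.

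**Figure D3:**
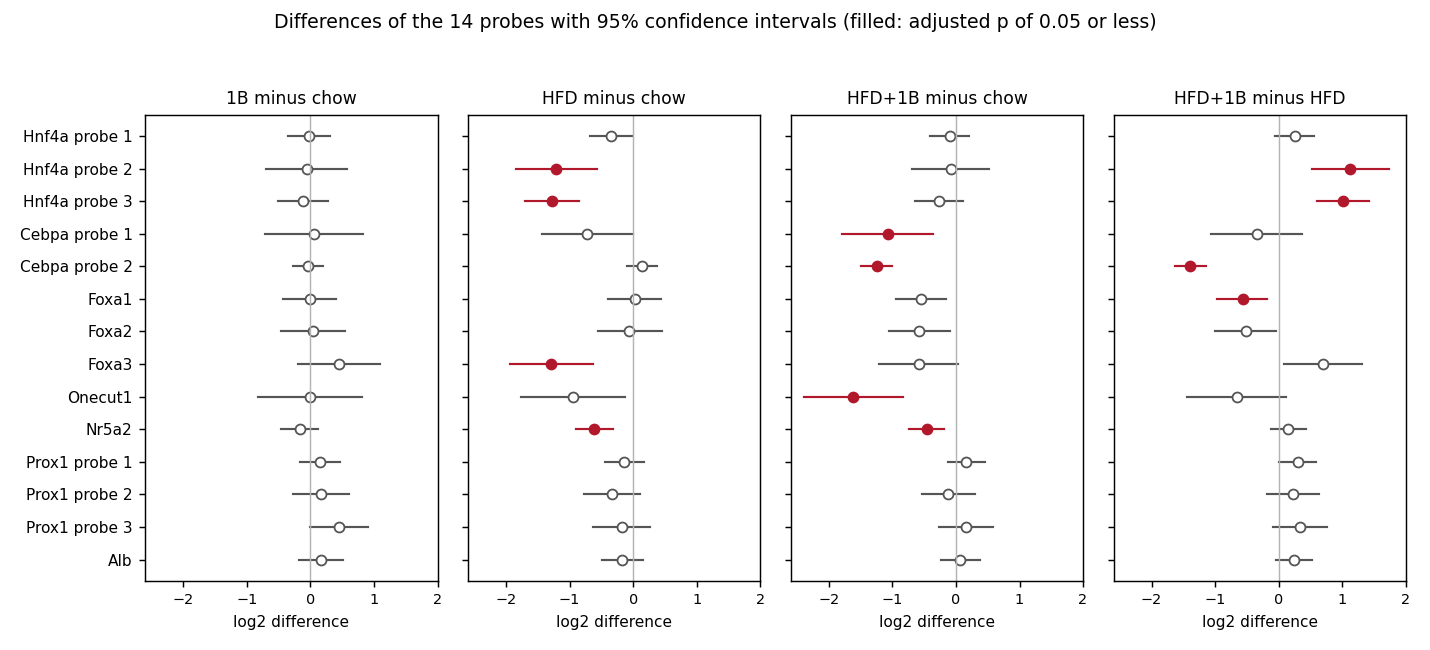
Log2 differences of the 14 member probes in 4 comparisons of groups, as points with 95% confidence intervals from limma, filled where the adjusted p over all probes was 0.05 or less. No probe is filled in 1B minus chow, 4 lie to the left in HFD minus chow, 4 lie to the left in HFD+1B minus chow (both Cebpa probes, Onecut1, and Nr5a2), and both Hnf4a probes 2 and 3 lie to the right in HFD+1B minus HFD.

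The factors that work beside the members moved in both directions in HFD+1B. Of 38 partner factors tested, by the brightest probe of each gene, 4 were higher and 13 lower than in chow, against 9.01% of all genes higher and 7.30% lower. Their median difference was -0.12, beside 0.002 for all genes. Hhex, a homeobox gene of early liver development, was lower (-1.73, SE 0.24, limma adjusted p = 8.05e-05), and so was Nr1i3, which encodes the xenobiotic sensor CAR (-1.55, SE 0.16, limma adjusted p = 6.06e-06). Dbp, an output gene of the circadian clock, was lower (-2.11, SE 0.33, limma adjusted p = 0.000235), as were its relative Tef (-0.91) and the fasting factor Ppara (-1.09). Onecut2, the paralog of Onecut1, was lower too (-0.8, SE 0.16, limma adjusted p = 0.00175).

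Among the other C/EBP genes, Cebpd and Cebpb went the opposite way to Cebpa. Cebpd was higher in HFD+1B than in chow by 1.32 (SE 0.19, limma adjusted p = 9.74e-05) and Cebpb by 0.87 (SE 0.21, limma adjusted p = 0.00909), and both encode factors of the acute-phase response. In 1B the difference of Cebpb was -0.8 (SE 0.22, limma adjusted p = 0.0556), and its interaction was 2.1 (SE 0.31, limma adjusted p = 0.00256). Atf5 was higher in 1B (1.08), HFD (0.88), and HFD+1B (0.8), and Creb3l3 in HFD+1B (0.52).

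Several partner factors were called in 1B, although no member was. In 1B against chow 1 of 38 partner factors was higher (2.63%, near the share over all genes) and 7 were lower (18.4%), against 2.14% of all genes higher and 2.02% lower. The lower genes were Nr0b2 (-1.44), Nr1i3 (-0.85), Ppara (-1.06), Nfib (-0.71), Klf15 (-1.09), Dbp (-1.73), and Tef (-0.68), of which Klf15 encodes a fasting-induced regulator and Nr0b2 the repressor SHP. In HFD against chow 1 was higher (2.63%, Atf5) and 2 were lower (5.26%), Nr2f2 (-0.89) and Klf15 (-0.84). Both shares are below those over all genes, 4.58% higher and 6.37% lower. In HFD+1B against HFD 3 were higher (7.89%, below the share over all genes) and 10 lower (26.3%), against 10.9% higher and 8.42% lower. Among these were Hhex (-1.17), Tbx3 (-1.22), which encodes a repressor active in hepatocytes, and Ppara (-1.4).

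**Figure D4:**
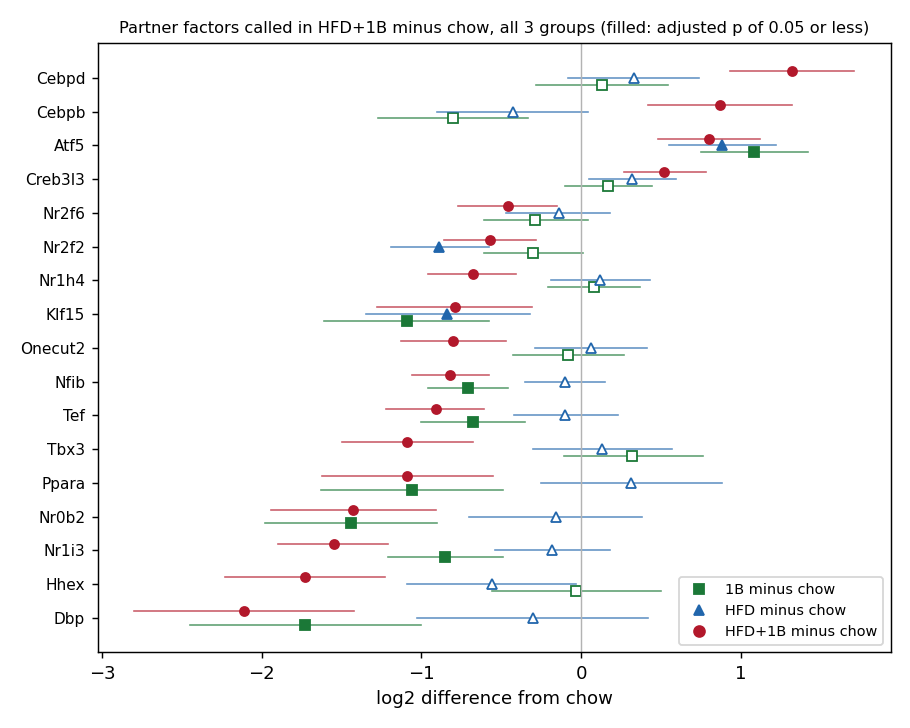
Log2 differences from chow of the 17 partner factors called in HFD+1B minus chow, for 1B (squares), HFD (triangles), and HFD+1B (circles), with 95% confidence intervals from limma and filled symbols at an adjusted p of 0.05 or less. Cebpd (1.32) and Cebpb (0.87) lie to the right in HFD+1B, whereas Dbp (-2.11), Hhex (-1.73), and Nr1i3 (-1.55) lie farthest to the left.

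Known target genes of the members were counted in the same way. The shares over all genes given with the partner factors hold for these lists too, that is, 9.01% higher and 7.30% lower in HFD+1B against chow and 10.9% higher and 8.42% lower in HFD+1B against HFD. Compared with chow, HFD+1B had 5 of 29 HNF4α targets higher (17.2%) and 11 lower (37.9%), with a median of -0.34. Cyp7a1, the rate-limiting enzyme of bile acid synthesis, was lower (-2.11, SE 0.25, limma adjusted p = 2.27e-05), and Apoc2, an activator of lipoprotein lipase, was higher by 1.72 (SE 0.18, limma adjusted p = 6.29e-06). For HFD against chow, 2 HNF4α targets were higher and 7 lower (median -0.18). Apob, the main protein of very low-density lipoprotein, was lower there (-2.76, SE 0.5, limma adjusted p = 0.00275) and higher by 2.28 in HFD+1B against HFD (SE 0.44, limma adjusted p = 0.00214). In that last comparison 3 were higher and 5 lower, and in 1B against chow 4 were higher and 1 lower, among them Pklr (2.35), which encodes pyruvate kinase, and G6pc (2.12), which encodes glucose-6-phosphatase.

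Among 18 C/EBPα targets, HFD+1B exceeded chow at 2 (11.1%, near the share over all genes) and was below it at 4 (22.2%), with a median of -0.32. The higher genes were Hp, the acute-phase protein haptoglobin, with 2.06 (SE 0.33, limma adjusted p = 0.00029), and Tat, the tyrosine aminotransferase that glucocorticoids induce, with 1.44 (SE 0.34, limma adjusted p = 0.00788). HFD against chow gave 1 higher (Hp, 1.16) and 5 lower, Tat (-1.35) and Apob among them, with a median of -0.43. HFD+1B against HFD gave 2 higher (11.1%) and 1 lower (5.56%), both near the shares over all genes, and 1B against chow 1 higher (G6pc) and 0 lower.

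FOXA targets, 17 in all, gave 2 higher (11.8%, near the share over all genes) and 4 lower (23.5%) for HFD+1B against chow, with a median of -0.19. Igfbp1, a secreted binder of insulin-like growth factors that insulin represses, was higher by 4.76 (SE 0.39, limma adjusted p = 3.57e-06). Against HFD it was higher by 4.85 (SE 0.45, limma adjusted p = 2.81e-05), and the interaction was 4.05 (SE 0.63, limma adjusted p = 0.00583), both with 2 HFD mice measured. In HFD against chow 2 FOXA targets were higher and 4 lower, in 1B 2 higher and 3 lower, and in HFD+1B against HFD 3 higher and 4 lower.

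None of 14 NR5A2 targets was higher for HFD+1B against chow (0), and 5 were lower (35.7%, median -0.46), Cyp7a1, Abcg8 (-1.45), and Nr0b2 (-1.43) being the lowest. Abcg8 encodes a subunit of the biliary cholesterol exporter. In 1B against chow 1 was higher and 7 were lower (median -0.38), among them Abcg8 (-1.93) and Nr0b2 (-1.44). HFD against chow gave 1 higher and 2 lower, and HFD+1B against HFD 0 higher and 5 lower.

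Other plasma proteins made in hepatocytes, 33 in all, gave 10 higher (30.3%) and 11 lower (33.3%) for HFD+1B against chow, with a median of -0.17. The fibrinogen gene Fgg was higher by 1.99 (SE 0.37, limma adjusted p = 0.00111) and Serpina7, which encodes thyroxine-binding globulin, by 1.96 (SE 0.21, limma adjusted p = 6.43e-06), whereas the complement gene C8b was lower (-2.74, SE 0.25, limma adjusted p = 1.5e-06). HFD against chow gave 2 higher and 5 lower, with Plg, the plasminogen gene, at -2.31. In 1B 3 were higher and 1 lower, and in HFD+1B against HFD 9 higher and 7 lower. Of 17 fetal and biliary genes, 1 was higher in HFD+1B than in chow (Spp1, osteopontin, 1.84) and 0 lower, or 5.88%, which is below the share over all genes. HFD against chow gave 1 higher and 2 lower, 1B 1 higher (Dlk1, 0.78) and 0 lower, and HFD+1B against HFD 2 higher and 0 lower.

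Of the other cell types, stellate cells had the most markers called. Over all genes, 4.58% were higher and 6.37% lower in HFD than in chow, and 9.01% higher and 7.30% lower in HFD+1B. In lists this short, a count of 1 cannot be set apart from these shares. Relative to chow, the mean of 9 stellate cell markers was 0.78 in HFD (0.65 to 0.98) and 1 in HFD+1B (0.46 to 1.36), with 4 higher in HFD and 8 higher in HFD+1B. Kupffer cell markers (7 tested) had 2 higher in HFD and 1 in HFD+1B, where the mean was 0.37 and the median difference 0.22. Sinusoidal endothelial markers (7) had 2 higher in HFD, and 2 higher and 2 lower in HFD+1B, where Lyve1 was at 3.19 and Kdr at -1.05, with a mean of 0.35 and a median of 0.1. Neutrophil markers (10) had 1 higher in HFD and 3 in HFD+1B, with a median of -0.04, and S100a8 was never well above background in chow. Cholangiocyte markers (7) had 1 lower in HFD and 1 higher in HFD+1B (Spp1). Markers of T and B cells (7) and of adipocytes (5) had 0 called in limma in both comparisons, with 2 at an unadjusted p under 0.05, Cd3e and Cfd, each in HFD. Acinar markers (6) had 1 higher in HFD+1B. Of 14 hepatocyte markers, 0 were higher and 2 lower in HFD (mean -0.31, -0.46 to -0.14), and 3 higher and 5 lower in HFD+1B (mean -0.15, -0.57 to 0.18). The part of cell composition in the differences of the members was not tested.

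The genes whose log2 ratios followed a member most closely were found among 15349 genes over up to 17 arrays, which share slides and the reference, as a description. For Foxa3 they were Dnmt3l (Pearson r = 0.93) and Bco2 (0.926), for Nr5a2 Olfr945 (0.943) and Zmym5 (0.92), and for Cebpa probe 1 C1rb (0.893) and Rbm4b (0.886, 15 arrays). Onecut1 was followed by Lifr (0.847) and Gphn (0.825), and Prox1 probe 1 by Daam2 (0.868) and Dpep2 (0.795). Foxa1 was followed by Gtf3c6 (0.84) and Reg1 (0.837), Foxa2 by 1700018L02Rik (0.848) and Irf2bp1 (0.805), Hnf4a probe 1 by Dcc (0.796) and Btnl1 (0.785), and Alb by Akap8 (0.785) and Olfr1500 (0.763).

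The promoters of Cebpa, which fell, and of Alb, which was not called, are shown for their motifs. These are the 250 bases before the start of Cebpa and of Alb from RefSeq on GRCm38.p6, both on the plus strand, in lower case with motif matches in capitals.
Cebpa, chr7:35119043-35119292: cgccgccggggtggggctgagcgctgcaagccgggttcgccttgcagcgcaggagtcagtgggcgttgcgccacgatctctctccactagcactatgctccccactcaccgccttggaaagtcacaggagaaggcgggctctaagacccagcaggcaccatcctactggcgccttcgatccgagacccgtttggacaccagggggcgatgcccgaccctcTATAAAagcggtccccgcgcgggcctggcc
Alb, chr5:90460620-90460869: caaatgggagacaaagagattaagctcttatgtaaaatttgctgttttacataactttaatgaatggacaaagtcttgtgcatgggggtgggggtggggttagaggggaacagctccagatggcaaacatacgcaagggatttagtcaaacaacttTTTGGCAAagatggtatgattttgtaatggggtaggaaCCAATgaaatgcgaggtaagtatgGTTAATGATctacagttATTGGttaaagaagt
The Cebpa window holds TATAAA, the TATA box, 30 to 25 bases before the start and no other motif of the 9 searched. The Alb window holds the HNF1 motif GTTAATNAT from -32 to -24, 2 CCAAT motifs, and the C/EBP motif TTGCNNAA from -94 to -87. Motifs were searched on both strands in 32851 windows of all promoters. TATAAA stands in 12.4% of them, CCAAT in 33.8%, TTGCNNAA in 9.56%, and GTTAATNAT in 0.737%.

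Of the 14 windows of the 9 members, 5 hold TATAAA, 7 CCAAT, 2 TTGCNNAA (Alb and Nr5a2), and 2 GTTAATNAT (Alb and Nr5a2). The ONECUT motif ATTGAT is in 2 (Hnf4a and Foxa2) and in 6.72% of all windows, the FOX motif TGTTTAC in 1 (Foxa1) and in 3.17%, and the E-box CACGTG in 1 (Onecut1) and in 6.02%. The HNF4 motif CAAAGTCC is in 0 and in 1.2%, and the NR5A motif CAAGGTCA in 0 and in 1.33%. A match only describes these letters.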

How the data were processed

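RNA of 17 livers was hybridized on 2-color Agilent arrays, 1 per mouse (Cy5 liver, Cy3 reference, which the labels describe as assorted mouse RNA and as liver), without a dye swap, on 5 slides that each held several groups. Spot values came from Feature Extraction 11.5.1.1, and the authors deposited median foreground and local background signals as raw intensity, and processed signals, and a table of the log2 ratio of the processed signals, in which 0 value columns were left unassigned. Here the deposited median signals were corrected with normexp (offset 50), normalized by loess within arrays, and averaged per probe, after 28 outlier spots of the members were left out. Probes were tested where Cy5 was well above background on at least 4 arrays. The number of arrays limits the precision, and the offset pulls dim probes toward zero.

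Group means were fitted to all 17 arrays (13 residual degrees of freedom) with limma 3.58.1 in R 4.3.3. P values were adjusted by Benjamini-Hochberg over 34664 probes per comparison. In simulated data for HFD+1B minus chow with the same 34664 probes, 91 of 100 probes changed by 1 on the log2 scale and 100 of 100 changed by 2 were recovered, with 9 false calls. The simulated noise was normal, independent between arrays, and of the same SD per probe in all groups. Real groups differed in spread and shared slides, so the recovery among the members may differ. A gene of a list was read from its probe brightest in Cy5. The methods name analysis of variance with the Tukey test, which was an alternative, as were other background corrections, normalizations, filters, blocks, and leaving out each mouse. The genes named are all members, up to 3 called genes with the largest difference per list and comparison, any called partner factor, and the 2 genes that correlated best with each member. One gene that this rule names is not reported here. Members and lists were chosen with earlier results of these data known. The position of a probe in coding sequence is background knowledge, since no transcript sequences were used here.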

Additional observations from a re-analysis of the deposited data

Results flagged for a closer look

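Among 52 groups of at least 4 values, 2 held a mouse far from the others, where chance gives about 2.6. HFD mouse 4 was the lowest at Foxa1 (0.27, the others 0.68 to 0.7), with a gap of 0.944 of the group's range. HFD+1B mouse 1 was the lowest at Foxa2 (-0.78, the others -0.55 to -0.48), with a gap of 0.763. The interaction passed the threshold at Hnf4a probe 3 (1.12, limma adjusted p = 0.0291) and at Cebpa probe 2 (-1.35, limma adjusted p = 0.00152). It did not pass at Hnf4a probe 1 (0.27, limma adjusted p = 0.529) or probe 2 (1.19, limma adjusted p = 0.117). Nor did it pass at the brighter Cebpa probe 1 (-0.41, limma adjusted p = 0.701). No cause was tested.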

How the results depend on the processing

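Each mouse was left out in turn, which gave 0 member probes called in 1B against chow, 4 in HFD against chow, and 3 to 4 in HFD+1B against HFD. For HFD+1B against chow the count was 2 to 4 (2 without chow mouse 2 or 3), for HFD+1B against 1B 2 to 4, and for the interaction 1 to 2 (1 without chow mouse 1 or 4, 1B mouse 1 or 2, or HFD mouse 4). The authors' log2 table gave 2 for HFD+1B against chow, beside 2185 higher and 2145 lower of all 34661 probes. A fit of only the groups compared gave 5 for HFD+1B against 1B, beside 1242 higher and 1186 lower of 34670. The Cy5 channel alone gave 1 for the interaction, beside 267 higher and 44 lower of 34664. With HFD mice 1 and 3 left out together, an alternative chosen after seeing the data, 2 were called in HFD against chow, with Foxa3 (limma adjusted p = 0.104) and Nr5a2 (0.143) lost. The causes of these changes were not tested, beyond the fewer mice in the last.

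Over single probes and alternatives, 2382 values stayed on their side of the threshold, 52 lost a call, and 33 gained one. Values without a call in either fit were counted among the 2382 also where their sign changed. Only 1 value changed sign with a call: Alb in HFD+1B against HFD was -0.52 in the Cy5 channel alone. Cebpa probe 2 and Onecut1 in HFD+1B against chow kept their calls throughout, at -1.3 to -1.15 and -1.91 to -1.35. In that channel, Hnf4a probe 3 lost its call in HFD against chow (adjusted p = 0.16) and in HFD+1B against HFD (adjusted p = 0.217, limma). Hnf4a probe 2 lost its call in HFD against chow with only the groups compared (limma adjusted p = 0.052). Nr5a2 lost its call in HFD+1B against chow with median centring (limma adjusted p = 0.165). Of all calls on the arrays in HFD against chow, 40% were higher, and 14.9% with median centring.

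Mice with the same replicate number deviated together with correlations of -0.13 to 0.48 over 24 pairs (median 0.18). Pairs with other numbers had -0.43 to 0.32 (84 pairs, median -0.05), and pairs on the same slide -0.23 to 0.48 (21 pairs, median 0.2). Replicate number and slide coincide for part of the mice, and the main fit took neither as a block. With the replicate block, 0, 4, 4, 4, 4, and 3 member probes were called in 1B against chow, HFD against chow, HFD+1B against chow, HFD+1B against HFD, HFD+1B against 1B, and the interaction. In the same order, the slide as a block gave 0, 4, 4, 5, 3, and 3.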
